A study of Drosophila melanogaster with 3 samples.

Results

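The heat shock and chaperone genes comprised 31 genes of the fly, taken by name from the Ensembl annotation of the dm6 build, out of 13945 protein-coding genes on the 6 chromosome arms. They are the protein-coding genes whose symbols begin with Hsp or Hsc70, together with Hsf, DnaJ-1, Droj2, l(2)efl, stv, the Hsp70/Hsp90 organising protein gene that the annotation lists as Stip1 (older symbol Hop), and the noncoding gene lncRNA:Hsromega. Of these, 30 encode proteins. The rule used symbols and no measured value. Occupancy of the homeobox factor NK7.1 had been mapped by ChIP-seq in whole Drosophila melanogaster embryos of the NK7.1-GFP strain, aged 0 to 24 hours with both sexes together. The transgene adds eGFP to the C-terminus of NK7.1, and the description states an anti-GFP precipitation, while the antibody field reads NK7.1. There was 1 group with 3 biological replicates from 1 transgenic line, the driver of the transgene was not given in the sources used here, and the labels name no heat treatment. Libraries without the tag and control libraries were not analysed here, so signal that any precipitation would give at these genes cannot be told apart from binding by NK7.1.

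Chaperones bind unfolded proteins and keep them from aggregating. Small Hsps hold clients without ATP, the Hsp70 and Hsp90 machines refold or mature them in ATP-driven cycles, J-proteins deliver clients to Hsp70, nucleotide exchange factors release them, and Hsp60 encloses them in the mitochondrion. In flies the transcription factor Hsf binds heat shock elements, which are inverted repeats of GAA, and induces many of these genes within minutes of heat stress. Several of the promoters hold a paused RNA polymerase before heat, whereas the Hsc70 cognates and Hsp83 are also transcribed without stress.

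The authors' reproducible list, thresholded by the irreproducible discovery rate and labelled optimal, holds 2475 dm6 peaks. A gene was scored when the summit of a peak lay inside it or at most 2 kb away. The pooled list holds 26951 entries, and the lists of replicates 1, 2 and 3 hold 25801, 30000 and 30000. Those lists include background by their own label, so each replicate was also read at its strongest 2475 peaks, called its top peaks here. Signal values are the authors' own, on the scale of the peak caller, and are compared only within a list. Read depth is unknown, because the lists hold no read counts. In whole embryos, occupancy in few cells and weak occupancy in many cells cannot be told apart.

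A reproducible peak was scored at 10 of the 31 genes (32.3%), against 22.6% of all protein-coding genes. The 31 include near-identical Hsp70 copies, at which a missing peak is no measurement, as described below. The 10 genes were Hsp83, the small Hsp genes Hsp23, Hsp26, Hsp27 and Hsp67Ba, the mitochondrial Hsp70 gene Hsc70-5, the co-chaperone genes Stip1, stv and Droj2, and lncRNA:Hsromega. They drew on 10 distinct peaks, since Hsp83 and lncRNA:Hsromega had 2 each while Hsp26 shared a peak with Hsp67Ba and Hsp27 shared one with Hsp23. In 7 genes (22.6%) a summit fell within 1 kb of the gene's own start site, against 13.9% of all protein-coding genes. With the strongest 1237 peaks of the reproducible list, 8 genes (25.8%) were scored, against 13.1%. No test was made of these differences, and the other genes were not matched for expression or open chromatin.

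The replicates gave similar counts. Top peaks were scored at 9 genes in replicate 1, 12 in replicate 2 and 11 in replicate 3, against 22.5%, 22.6% and 22.9% of protein-coding genes. The mean over replicates was 34.4% ± 4.93 of the heat shock and chaperone genes (SD, n = 3), against 22.7% ± 0.187 of protein-coding genes (SD, n = 3). There were 9 of the 31 genes scored in all 3 replicates, against 15.2% of protein-coding genes, and 13 in at least 1, against 31.2%. For 8 genes (25.8%) a reproducible peak was overlapped by a top peak of every replicate, against 14.3% of protein-coding genes. At the level of peaks, 7 of the 10 had that support, compared with 57.7% of the whole reproducible list. The reproducible list was made from the same libraries, so this support is not an independent check.

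**Figure D1:**
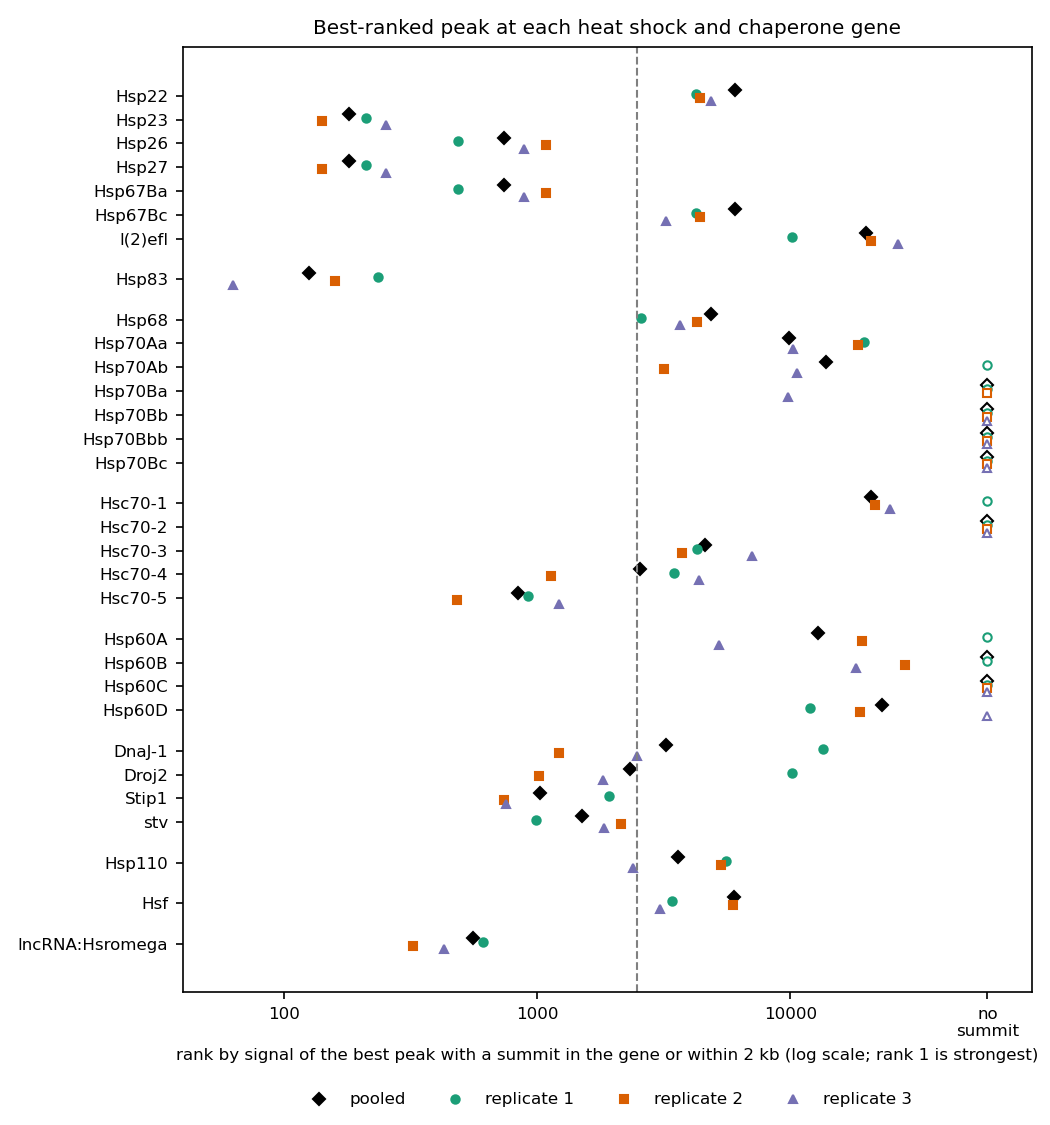
Rank by signal (log axis) of the best peak with its summit inside each gene or at most 2 kb away, in the pooled list (black diamonds) and in replicates 1 (green circles), 2 (orange squares) and 3 (purple triangles); open symbols at the right mark lists with no such summit. The dashed line is rank 2475, and Hsp83, Hsp26, Hsp27, Hsc70-5 and lncRNA:Hsromega lie left of it in every list, whereas no inducible Hsp70 or Hsp60 gene does in any.

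Among the small Hsp genes 4 of 7 were scored, and the same count was found in the top peaks of each replicate. Of the 7, 6 lie in a cluster of 14.2 kb on 3L, and its 2 reproducible peaks stood just upstream of Hsp27 and of Hsp26. The Hsp27 peak, at chr3L:9383790-9384030, had a signal of 338 and ranked 181 in the reproducible list. In replicates 1, 2 and 3 the peaks that overlap it had signals of 114, 115 and 106 and ranks of 212, 142 and 254, so all 3 placed it near the head of the list. Positions are given from the nearest start site of the gene, negative upstream. The pooled summit was at -137 bp for Hsp27, and the summits of replicates 1, 2 and 3 were at -142, -121 and -137 bp.

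The Hsp26 peak, at chr3L:9377314-9377733, had a signal of 176 and ranked 739. Its ranks in replicates 1, 2 and 3 were 490, 1085 and 887, and its signals were 78.6, 44.0 and 59.5. The pooled summit lay at -97 bp for Hsp26, with the replicates at -102, -36 and -108 bp, so replicate 2 placed it nearest the start. Both small Hsp peaks were thus promoter peaks, and neither neighbour scored through them had a reproducible summit of its own: the same summits lay 2044 bp from the start of Hsp23 and 2010 bp from that of Hsp67Ba.

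The bases around both summits are given to show what the promoter peaks cover, 101 bases on the strand of the gene, with capitals for a heat shock element pair. The pair was searched as GAANNTTC or TTCNNGAA, each of which is its own reverse complement. The Hsp27 window is chr3L:9383876-9383976 and the Hsp26 window is chr3L:9377474-9377574, both dm6. The Hsp23 window, chr3L:9381782-9381881, is only the 100 bases before its start and had no reproducible summit.
Hsp27 summit: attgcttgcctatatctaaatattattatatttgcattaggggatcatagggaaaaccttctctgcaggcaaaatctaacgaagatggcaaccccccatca
Hsp26 summit: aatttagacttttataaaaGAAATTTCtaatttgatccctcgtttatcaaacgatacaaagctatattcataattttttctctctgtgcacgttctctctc
Hsp23 before start: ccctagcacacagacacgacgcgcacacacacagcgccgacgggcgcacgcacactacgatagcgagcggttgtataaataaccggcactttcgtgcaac
The Hsp26 window holds 1 pair and the Hsp27 and Hsp23 windows hold none, but the longer promoter of Hsp23, 250 bases before to 50 after the start, holds 2. The GC content was 38.6% at the Hsp27 summit, 28.7% at the Hsp26 summit and 59.0% in the Hsp23 window.

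**Figure D2:**
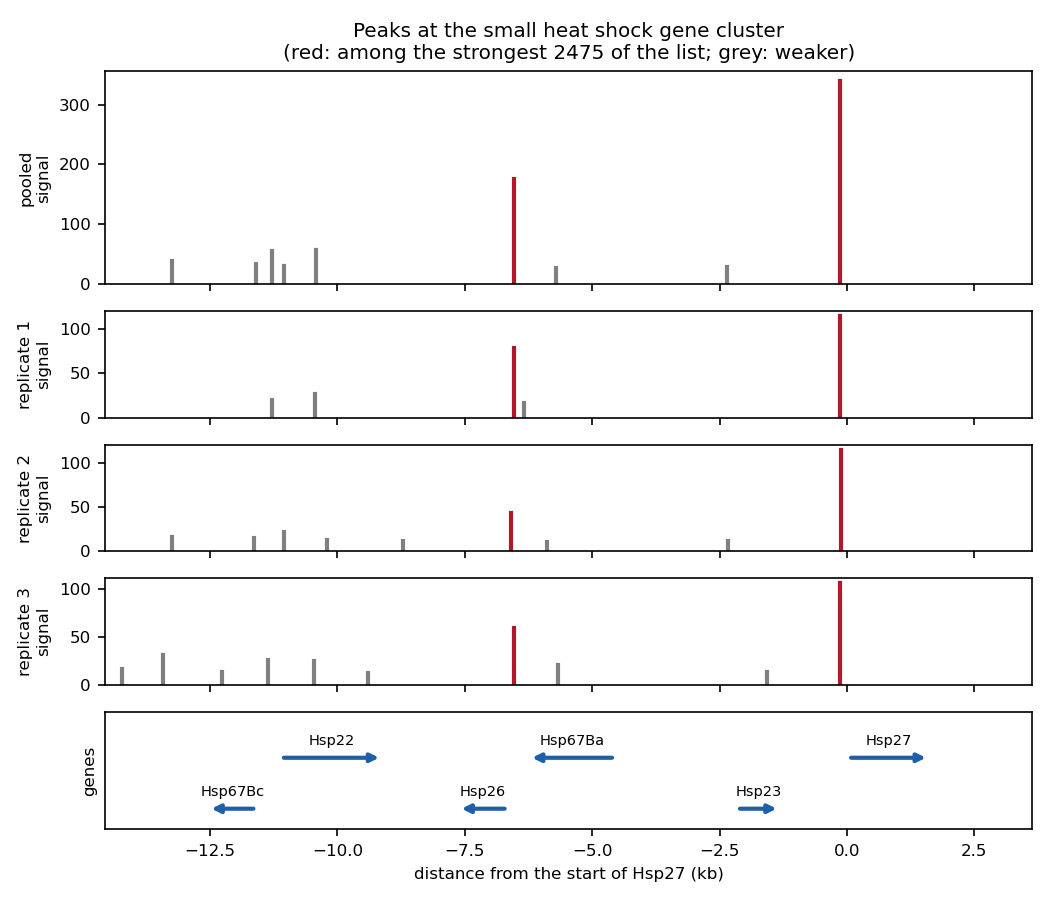
Signal of each peak (bars at the summit, each panel on the scale of its own list) across the small Hsp cluster, in the pooled list and in the 3 replicates, against distance from the start of Hsp27 in kb; arrows show the genes and their direction. The peaks upstream of Hsp27 and Hsp26 are the only ones among the strongest 2475 of any list (red), and every peak at Hsp22 and Hsp67Bc is weaker (grey).

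The remaining small Hsp genes had no reproducible summit. The best pooled summit for Hsp22 and Hsp67Bc was the same one, of rank 6062 with a signal of 56.5. It lay inside the annotated Hsp22 gene, at -361 bp from an inner start site. Over the whole cluster with its flanks the pooled list held 9 summits, and the lists of replicates 1, 2 and 3 held 5, 9 and 10. The lens crystallin-like gene l(2)efl lies elsewhere, and its best pooled summit ranked 19890 with a signal of 31.5.

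Hsp83, the only Hsp90 gene of the set, had the strongest peak of all members. That peak, at chr3L:3192987-3193234, had a signal of 405 and ranked 126 of 2475. Replicates 1, 2 and 3 gave it signals of 110, 110 and 192 and ranks of 236, 159 and 63. The summit stood between the 2 annotated start sites of the gene, in the 5' UTR of the longer transcript and at -101 bp from the inner start. The summit was at -91 and -92 bp from that start in replicates 2 and 3, and in replicate 1 it lay nearer the outer start, at 94 bp.

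A second Hsp83 peak, at chr3L:3194074-3194493, lay in the intron at 1068 bp from the inner start, with a signal of 131 and rank 1336. It ranked 666, 1993 and 6359 in the 3 replicates, so replicate 3 did not place it among its top peaks. At the first summit the sequence holds a heat shock element pair, shown in capitals within 30 bases at chr3L:3193137-3193166 on the plus strand, which is the site of the motif rather than the whole peak.
Hsp83 element: agaagcctctaGAAGTTTCtagagacttcc
The 101 bases around the intronic summit, chr3L:3194234-3194334, hold no such pair and had the lowest GC content of the 10 member summits, 23.8%.

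The noncoding gene lncRNA:Hsromega, whose nuclear transcripts organise omega speckles and which is strongly heat-inducible, had a pair of reproducible peaks near its 5' end. The stronger, at chr3R:21297515-21297934, lay in a noncoding exon 1104 bp from a start site, with a signal of 203 and rank 561. In replicates 1, 2 and 3 it ranked 614, 971 and 431. The other, at chr3R:21296197-21296616, had its summit inside the gene, in a noncoding exon at -214 bp from the inner start site, with a signal of 191 and rank 633. It ranked 931, 325 and 1049, so both peaks were top peaks in every replicate and their order changed in replicate 2. The 101 bases at the summit of the weaker peak, chr3R:21296357-21296457 on the plus strand, contain 1 heat shock element pair, marked in capitals. Those at the summit of the stronger peak contain none.
lncRNA:Hsromega summit: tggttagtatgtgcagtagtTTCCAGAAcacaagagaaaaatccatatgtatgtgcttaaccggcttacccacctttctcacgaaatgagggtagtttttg

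The co-chaperone genes had 3 of 4 scored, but with less agreement between replicates. For stv, the fly BAG-domain exchange factor starvin, the peak at chr3L:13476897-13477316 had its summit at -434 bp, with a signal of 122 and rank 1502. It ranked 990, 4499 and 1838 in replicates 1, 2 and 3, so this peak was not a top peak of replicate 2. Replicate 2 had a top peak at another stv summit, at -495 bp from a start site inside the gene, with rank 2147. For Droj2, a cytosolic J-protein gene, the peak at chr3R:13381824-13382243 had the lowest signal of the 10, 95.6, at rank 2325, and its summit lay at -72 bp. In replicate 1 the overlapping peak ranked 16091, while in replicates 2 and 3 it ranked 1022 and 1829. The mitochondrial ribosomal protein gene mRpS21 is the nearest other gene, and the summit lies at -225 bp from its start, so the peak is upstream of both.

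**Figure D3:**
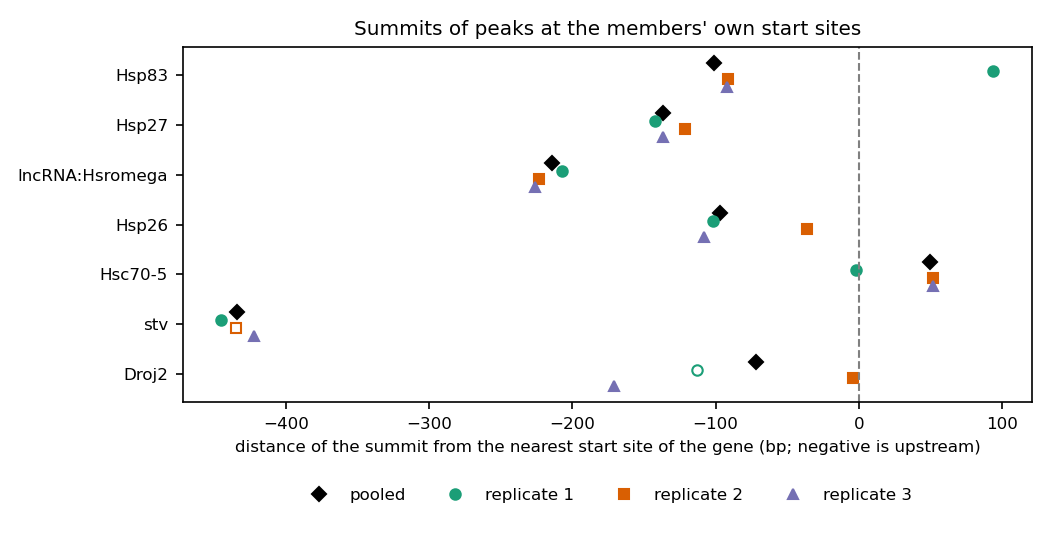
Distance in bp from the nearest start site of the gene to the summit (negative is upstream), for the 7 genes with a reproducible summit within 1 kb of a start site, in the pooled list and in each replicate; open symbols are peaks outside a replicate's top 2475. The Hsp27, lncRNA:Hsromega and stv summits differ little between lists, while those of Droj2 range from -171 to -4 bp. For Hsp83 the replicate 1 summit is plotted at 94 bp, from the outer start, and the pooled one at -101 bp, from the inner start.

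The windows of the stv and Droj2 summits are given because each of these promoter peaks was outside the top peaks of 1 replicate. They are chr3L:13477057-13477157 and chr3R:13381984-13382084, on the plus strand, and neither holds a heat shock element pair.
stv summit: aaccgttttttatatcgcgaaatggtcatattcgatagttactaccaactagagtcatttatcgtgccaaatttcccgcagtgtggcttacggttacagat
Droj2 summit: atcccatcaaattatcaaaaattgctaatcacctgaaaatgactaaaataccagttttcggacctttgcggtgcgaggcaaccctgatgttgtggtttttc

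Stip1, the adaptor that links Hsp70 to Hsp90, was scored through a peak that is not at its own promoter. That peak, at chr2L:297627-298046 with a signal of 151 and rank 1026, lay beyond the 3' end of Stip1, 2715 bp from its start and at -43 bp for the phosphoinositide 3-kinase subunit gene Pi3K21B. It ranked 1927, 740 and 757 in the 3 replicates. The fourth co-chaperone gene, DnaJ-1, encodes a major Hsp40 of the fly and had no reproducible summit. Its best pooled summit, at -15 bp, ranked 3233 with a signal of 79.6. In replicates 1, 2 and 3 the best rank was 13449, 1223 and 2487, and these were different summits, at 2246, -5 and -1790 bp, so replicate 2 alone placed a top peak at the promoter.

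Of the 5 genes named as Hsc70 cognates, which encode constitutive Hsp70 proteins, 1 had a reproducible peak. This was Hsc70-5, the mitochondrial form, whose peak at chr2R:14255932-14256351 had a signal of 166 and rank 844. The summit was in the 5' UTR, 50 bp downstream of the start, and in replicates 1, 2 and 3 the overlapping peaks ranked 925, 484 and 1221. Hsc70-4, the abundant cytosolic form, came just after the end of the list, with a best pooled summit at rank 2553, a signal of 90.9 and a position of -142 bp. The lowest signal in the reproducible list was 92.5. Hsc70-4 was scored by the top peaks of replicate 2, at rank 1134, and not by those of replicates 1 and 3, at ranks 3469 and 4375. Hsc70-3, the endoplasmic reticulum form known as BiP, had its best pooled summit at rank 4594, inside the gene at -7 bp from an inner start. Hsc70-1 had 1 pooled summit, at rank 20919, and Hsc70-2 had none.

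The heat-inducible Hsp70 genes carried no reproducible peak at any of 7 members and no top peak in any replicate. Hsp68 had its best pooled summit at rank 4855 and -923 bp, with a signal of 63.7. Its best ranks in replicates 1, 2 and 3 were 2570, 4265 and 3680, at -931, 2691 and -943 bp, so replicate 2 had a different best summit. Around the pair Hsp70Aa and Hsp70Ab the pooled list held 2 summits, of ranks 9863 and 13805, and both lay beyond the 3' ends of the genes, 3193 and 3679 bp from their starts. For Hsp70Ba, Hsp70Bb, Hsp70Bbb and Hsp70Bc the pooled list held none. The lists of replicates 1 and 2 held no summit in the windows of these 4 genes, and that of replicate 3 held 1, at rank 9783 beside Hsp70Ba.

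These 6 Hsp70 genes are near-identical copies, and reads from them may not be placed uniquely. Of all words of 50 bases inside the genes, between 0.817% in Hsp70Ab and 13.4% in Hsp70Bc occurred once in the genome. In the 300 bases around their starts the share was 12.4% for Hsp70Aa, 12.7% for Hsp70Ab, 49.4% for Hsp70Ba and 0% for Hsp70Bb, Hsp70Bbb and Hsp70Bc. The 2 kb on either side, which the score also uses, held more unique sequence at most copies. There the share was 85.6% for Hsp70Aa and Hsp70Ab, 57.9% for Hsp70Ba, 51.3% for Hsp70Bc, 31.7% for Hsp70Bbb and 0% for Hsp70Bb. Within Hsp68 every word occurred once, and the same held for 22 of the 31 genes and for all 10 member peaks. Read length and the handling of repeated reads were not given in the sources used here, and the effect on these counts was not tested. A missing peak at the 6 Hsp70 copies is therefore no measurement of missing occupancy.

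**Figure D4:**
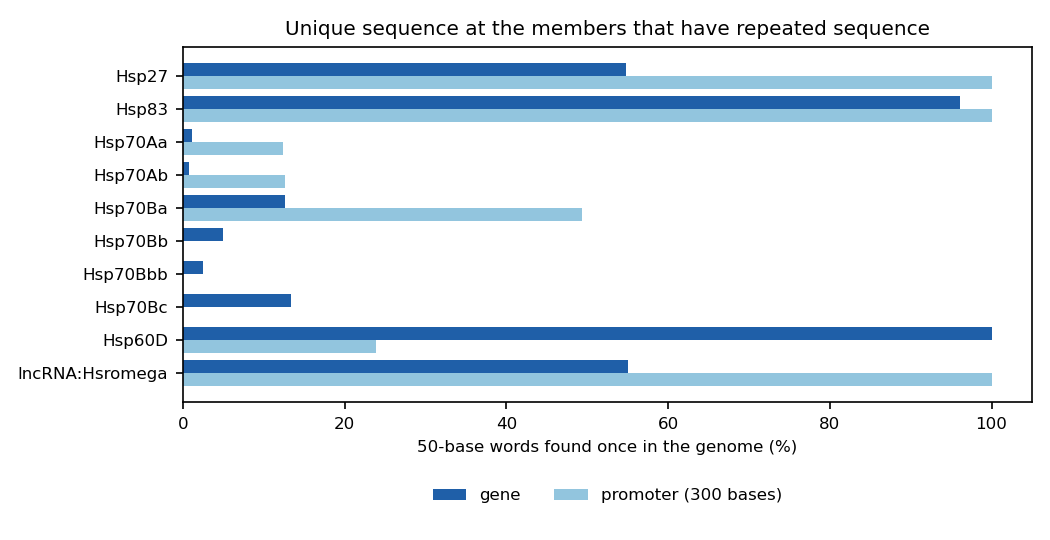
Percent of 50-base words that occur once in the genome, inside the gene (dark bars) and in the 300 bases around its start (light bars), for the 10 genes in which either is below 100%. The 6 Hsp70 copies have the lowest shares inside the gene, all at or below 13.4%, whereas Hsp27, Hsp83 and lncRNA:Hsromega have unique promoters.

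The bases upstream of Hsp70Aa and Hsp68 are shown because both match the heat shock element pair and neither had a reproducible peak. At Hsp70Aa the missing peak is no measurement, as stated above. Each window is the 100 bases before the start, chr3R:11956545-11956644 and chr3R:24057311-24057410, both on the minus strand, with heat shock element pairs in capitals.
Hsp70Aa before start: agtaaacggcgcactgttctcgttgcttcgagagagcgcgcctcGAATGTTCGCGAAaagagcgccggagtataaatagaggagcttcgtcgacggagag
Hsp68 before start: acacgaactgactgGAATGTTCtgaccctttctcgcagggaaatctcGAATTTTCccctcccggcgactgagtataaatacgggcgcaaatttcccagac
Each of these windows contains 2 pairs, which overlap in Hsp70Aa and lie apart in Hsp68, and the promoters of 300 bases hold 5 and 6.

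Hsp60 genes encode the mitochondrial chaperonin and its relatives, and none of the 4 was scored in the reproducible list or in the top peaks of any replicate. Hsp60A, the ubiquitous form, had its best pooled summit at rank 12923, 61 bp downstream of a start. Hsp60D had 1 pooled summit, at rank 22964, and Hsp60B and Hsp60C had none. The exchange factor gene Hsp110, formerly Hsc70Cb, had its best pooled summit at rank 3594, 1231 bp downstream of a start, and entered the top peaks of replicate 3 only, at rank 2393. Hsf itself, the regulator of the response, had its best pooled summit at rank 6002 with a signal of 56.9, 618 bp inside the gene. Its best ranks in replicates 1, 2 and 3, 3400, 5960 and 3049, belonged to different summits, at 6296, -1524 and 584 bp from the start.

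In the pooled list as a whole 24 of the 31 genes had a summit (77.4%), close to 79.8% of protein-coding genes, so the pooled list with its background did not set these genes apart. Among those with one, the median of the best pooled signal was 77.5 for the heat shock and chaperone genes and 59.2 for all protein-coding genes. The median signal of the 10 reproducible member peaks was 171, against 135 for the whole reproducible list, and their median rank was 791.5. Gene length was similar, with a median of 2375 bp against 2166 bp.

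Heat shock element pairs were counted in promoters and at summits. In the 300 bases around the outermost start (250 before, 50 after), 17 of 31 promoters (54.8%) held a heat shock element pair, against 15.9% of all protein-coding genes. The pair was found in 1 of the 7 genes with a reproducible summit near the start, Hsp26, and in 16 of the 24 others. These windows sit on the outermost start alone, so the count of 1 in 7 depends on that choice. The pairs at the Hsp83 and lncRNA:Hsromega summits lie near inner starts, outside the windows, and were not counted there. Among the 24 are the 6 Hsp70 copies, which all hold the pair, whose sequences are not independent and where a missing peak is no measurement. Without these copies, a count added after the data were seen, the pair was in 10 of 18. Around the summits themselves, in 101 bases, the pair was found at 3 of the 10 member peaks, those of Hsp83, Hsp26 and lncRNA:Hsromega, against 5.45% of all reproducible summits. A match is a description of the letters and not a site.

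Other motifs were counted in the same windows. The TATA box TATAAA, on either strand, was in 5 of the 7 promoters and 19 of the 24, against 45.8% of all, and GAGAG, a core that GAGA factor binds, was in 3 and 11, against 29.7%. Without the Hsp70 copies these counts among the others were 13 of 18 for TATAAA and 5 of 18 for GAGAG. The homeodomain core TAATTG was in 3 and 5, against 25.2%, and TAATTA was in 1 and 2, against 20.4%. At the 10 member summits TAATTG occurred once and TAATTA did not occur, while 9.49% and 6.95% of all reproducible summits held them. The median GC content of the member summits was 39.1%, against 35.6% for all reproducible summits.

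Other folding and stress genes were taken as 6 lists by function and scored in the same way. Of 47 such genes 16 (34.0%) had a reproducible summit, against the same 22.6% of protein-coding genes. The chaperonin CCT, which folds actin and tubulin, had 1 of 8 subunits, CCT3, with a peak of signal 106 that only 1 replicate placed among its top peaks. Prefoldin, which hands clients to CCT, had 0 of 6. The Hsp90 co-chaperones had 2 of 9, Sgt and Dpit47. The Dpit47 peak, with a signal of 615, lay closer to a start of Adf1.

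J-proteins and exchange factors had 4 of 11, namely mrj, P58IPK, Tpr2 and Sil1. The mrj peak, at -278 bp, had a signal of 370, and the Sil1 peak was nearest to Cad96Cb. Folding genes of the endoplasmic reticulum had 4 of 6, which were Calr, Cnx99A, Pdi and ERp60. At the calnexin gene Cnx99A the summit was at -11 bp and its signal was 131, whereas the strongest Pdi peak lay nearest to CG12316.

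Regulators of other stress responses had 5 of 7, namely Xbp1, Ire1, cnc, Keap1 and foxo. For Xbp1, a regulator of the unfolded protein response, the summit was at -91 bp and its signal was 128. Some of the stress regulators are long, with 41132 bp for cnc and 31034 bp for foxo, and the peaks counted for Ire1, Keap1 and foxo were nearest to starts of Mrm2, kuk and Npc2b. With these 6 lists, as with the members, a peak near a gene need not belong to that gene.

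**Figure D5:**
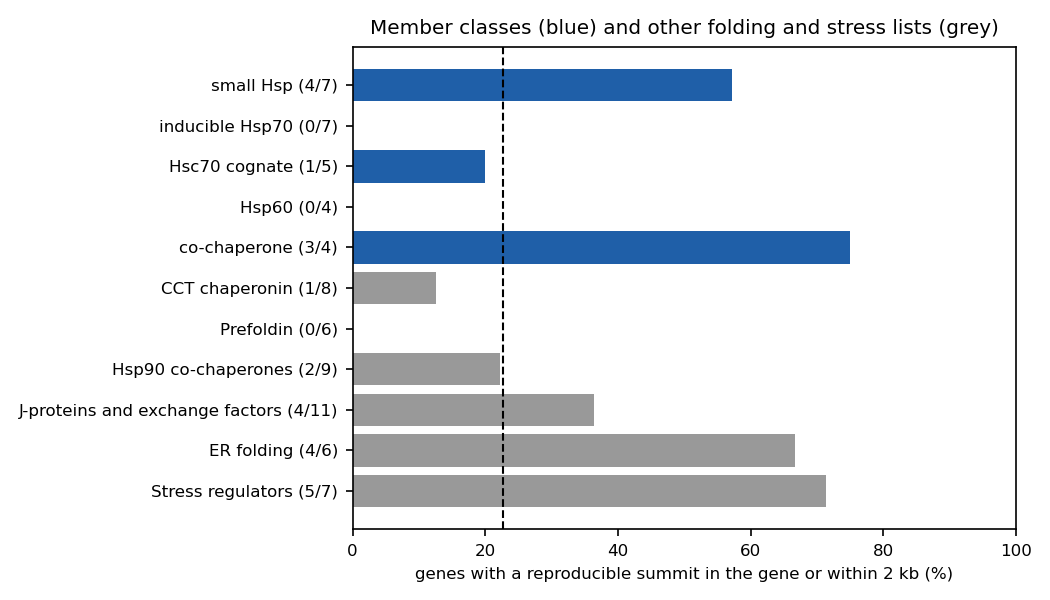
Percent of genes with a reproducible summit inside them or at most 2 kb away, for the member classes with more than 1 gene (blue) and for the 6 other folding and stress lists (grey), with counts in brackets; the dashed line is the 22.6% of all protein-coding genes. Small Hsp genes (4 of 7) and co-chaperones (3 of 4) lie right of the line, and the inducible Hsp70 and Hsp60 genes are at 0. Each bar rests on few genes, and some genes were scored through a peak nearer to another gene. With a summit within 1 kb of the gene's own start, the counts were 2 of 7 and 2 of 4, against 13.9% of all protein-coding genes.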

How the data were processed

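Peak lists in narrowPeak format came from 3 biological replicates of 1 group. Per the deposited text listings, the authors called peaks on dm6 in each library and on the pooled alignments, in each case against a control, and thresholded them by the irreproducible discovery rate into the optimal list. Neither aligner nor caller was given in the sources used here. Signal, per peak, is the authors' own value on the caller's scale, with no normalization stated. The deposited −log10 q-values hold many ties, with 1276 of 2475 optimal peaks at the highest value of 3.41, so peaks were ranked by signal. By that rank all 2475 optimal peaks come first in the pooled list. The summit offset is the authors' other column used.

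Gene models came from Ensembl 115 and sequence from RefSeq's Release 6 assembly, the build of the lists. In it 99.5% of outermost coding starts read ATG and every peak ended within its arm. Scripts in Python 3.11.15 with Matplotlib 3.10.9 assigned summits to genes within 2 kb, called replicate support at an overlap of at least 1 bp, counted motifs on both strands and counted 50-base words over the whole assembly on both strands. The assignment was tested on simulated data. No 2 replicates shared a peak identical in position and signal. No test was run: there is 1 group, counts stand beside the share of all protein-coding genes, and the spread is the SD over replicates. Depth is unknown, so no depth-based error is given. The labels number the replicates as biological, and whether the embryo collections were separate is not stated otherwise.

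The members, classes, lists and alternatives were chosen with earlier results of these data known. Named are every member with a reproducible summit, the member of each class with the best pooled signal among those without, and members of the other lists with a reproducible summit. Further members without one, and the Hsp23 and Hsp70Aa promoters, were named after their values were seen. Ahsa1 and l(2)tid matched no single annotated gene and were not used. The lists on dm3 were not used here.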

Additional observations from a re-analysis of the deposited data

How the results depend on the processing

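The count of 10 of the 31 genes with a reproducible summit depended on the flank. With the gene body alone it was 3 of 31 genes, against 8.02% of protein-coding genes, and 5 peaks in place of 10. With 1 kb on either side it was 9 of 31, against 18.6%, and with 5 kb it was 11 of 31, against 32.9%. The shares with the gene body alone and with 5 kb were thus close to those of all protein-coding genes. Counting a summit only for the gene with the nearest start site gave 7 genes, against 12.4%. With the Hsp70 genes left out the count stayed at 10, against 22.6%, by construction, because none of them had a reproducible summit. The mean number of genes scored by top peaks was 10.7 in the replicates, 9 with fewer top peaks (the strongest 1237, against 12.9%), 16.3 with double the number (against 36.8%) and 23.7 with the full replicate lists (against 81.7%). Fewer or more entries per list account for these shifts by construction. Without replicate 1, 2 or 3 that mean ranged from 10 to 11.5 (against 22.6% to 22.7%), and the number of genes whose peak had support in both other replicates ranged from 8 to 9 (against 16.1% to 16.4%). The optimal list was made by the authors from all libraries and could not be remade without one. No paired analysis was possible because there is 1 group. Whether these peak lists could show occupancy at repeated sequence is unknown, because the handling of repeated reads was not given.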

Other observations

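A pair of genes with an Hsp name among their older symbols or synonyms do not carry it in the annotation and so fell outside the 31. CG4456, formerly Hsp67Bb, lies in the small Hsp cluster and had no reproducible summit, with a best pooled summit of rank 6062, the same one as for Hsp22. Its best ranks in replicates 1, 2 and 3 were 4228, 4404 and 4880. These were different summits, at 701, 80 and -16 bp from a start site of the gene, against 705 bp for the pooled one. CG14207, which has HspB8 among its synonyms, had no reproducible summit either. Its best pooled summit, 22 bp downstream of a start site, ranked 3402 with a signal of 77.6, and its best ranks in the replicates were 4120, 3180 and 5133.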
